A study of Tupaia belangeri chinensis with 36 samples.

Results

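The inner cortical plate (CPi) was compared with the outer cortical plate (CPo) of the fetal Chinese tree shrew (Tupaia belangeri chinensis) at embryonic day 42 (E42), a late stage of cortical development. The libraries were chosen by the layer and the age in their labels, which gave 2 libraries of the CPi and 2 of the CPo, 4 of the 36 libraries analysed here. The study cut layers of the fetal cortex from Nissl-stained frozen sections by laser capture microdissection and sequenced their mRNA at E28, E37 and E42. The labels name no genotype and no treatment, so the groups were set apart by layer alone, and each library held the RNA of every cell type in its band of tissue. In such bulk tissue, fewer cells of a type and less RNA per cell cannot be told apart. The labels do not say how many animals were used or whether libraries with the same number came from the same brain. In the main fit, p-values and SEs therefore measure only the spread between libraries, pooled over 35 libraries of all layers and stages. That spread may be technical. Counts on annotated features came to 44756048 and 44417466 in the CPi libraries and to 60294673 and 41628512 in the CPo libraries.

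The cortical plate is built from the inside out. Neurons born early settle deep and become the deep layers, and neurons born later migrate past them and settle above them as the upper layers. The inner plate borders the subplate and the intermediate zone (IZ), through which new neurons and axons pass, and the outer plate borders the marginal zone (MZ), which holds Cajal-Retzius cells. Transcription factors such as CUX2 and the POU3F (BRN) family are known from upper-layer neurons, and TBR1, SOX5, TLE4 and ETV1 from deep-layer and subplate neurons.

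The annotation used by the authors lists 76871 features. Of these, 21043 carry an identifier of the form TSDBGID and no gene symbol, 31776 are intergenic transcripts named LINC with the symbol of a gene near them, and 22595 are antisense (AS) transcripts named after the gene they overlap. In the 4 libraries, 98.2% to 98.4% of the counts fell on TSDBGID features. None of the 21043 identifiers was found in the RefSeq gene table used here (0 matched), whereas 10411 of the 12435 symbols in LINC and AS names were found in it. Symbols therefore come from LINC and AS features only, and such a symbol names the neighbouring gene, not the function of the transcript. The library protocol names no step that marks the strand and the strand setting of the counting was not given in the sources used here, so reads of an AS feature and of the gene on the other strand cannot be told apart. No gene length was used, and levels are compared between libraries for 1 feature at a time. The labels of inner and outer plate could be checked only through such neighbours of marker genes, and TBR1 had none.

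At E42, 176 of 26858 tested features (0.655%) differed between the CPi and the CPo at an adjusted p under 0.05 in edgeR's quasi-likelihood test, 125 of them higher in the CPi (0.465%) and 51 higher in the CPo (0.19%). The median log2 fold change, CPi minus CPo, was 1.84 in the first set and −1.55 in the second. A log2 fold change of 4 or more was reached by 15 of the features higher in the CPi and by 0 of those higher in the CPo. The sets held 120 and 49 TSDBGID features, and 7 LINC or AS features made up the rest, 5 higher in the CPi and 2 higher in the CPo (0.0646% of the 10836 tested). All 176 had the same sign in both pairs of libraries with the same number, and their groups did not overlap, which a call with 2 libraries a group nearly fixes. Of all tested features, 42% did not overlap. With the replicate number as a block, 479 features passed, of which 297 were higher in the CPi. The count rests on every library, since it fell to 56 without CPi replicate 1, to 45 without CPi replicate 2, to 60 without CPo replicate 1 and to 13 without CPo replicate 2, of which 5 were higher in the CPi. All 176 kept their direction in these fits.

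**Figure D1:**
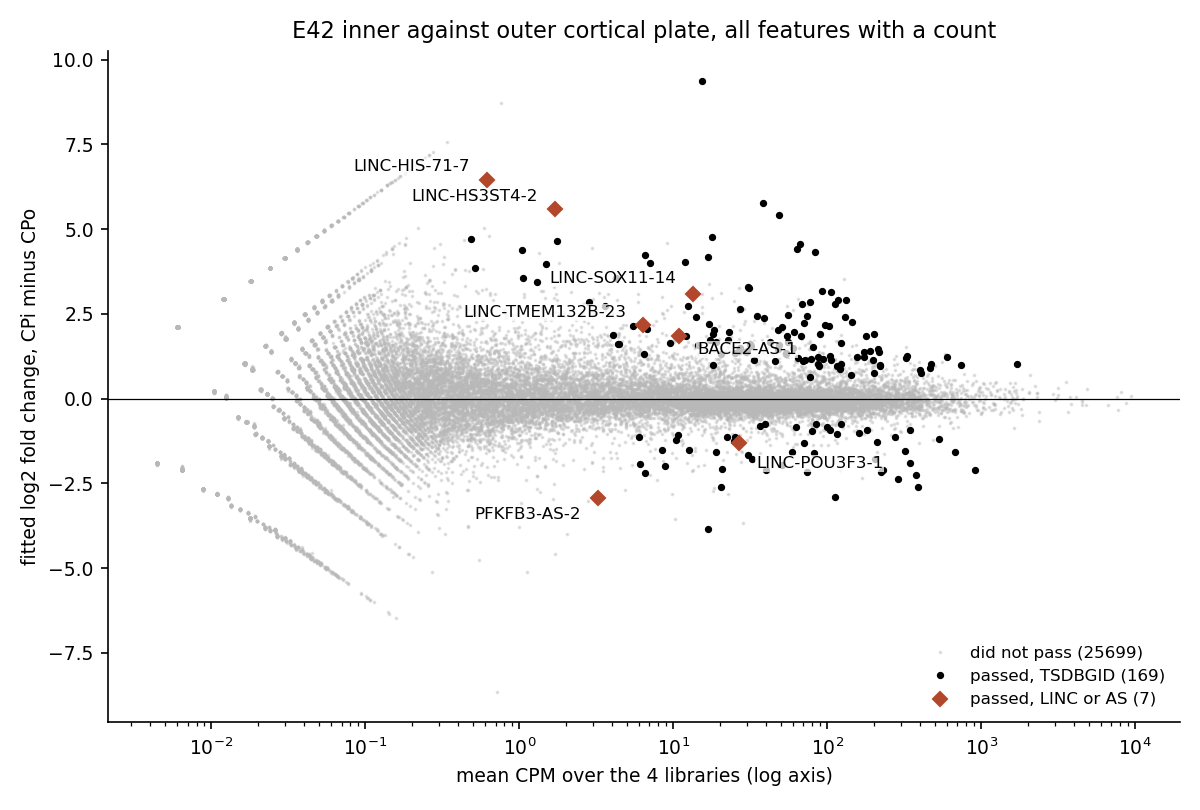
Mean level of each feature over the 4 E42 libraries (CPM, log axis) against its fitted log2 fold change, CPi minus CPo, for features with a count; black points are the 169 TSDBGID features and red diamonds the 7 LINC and AS features with an adjusted p under 0.05. Points above 0 are higher in the CPi (125 called) and points below 0 are higher in the CPo (51 called).

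Of the 7 LINC and AS features, LINC-HS3ST4-2 is named after HS3ST4, a heparan sulfate 3-O-sulfotransferase that is known as a marker of layer 6 neurons. Its level, in CPM (library-size scaled counts, adjusted by the trimmed mean of M-values), was 3.96 and 2.67 in the CPi libraries and 0.0355 and 0.103 in the CPo libraries. It was detected with 277 counts in the CPi and 6 in the CPo, a ratio of depth-scaled counts of 52.7 (95% counting interval 23.9 to 145). Its fitted log2 fold change was 5.59 ± 0.93 (SE, n = 2 and 2, adjusted p = 0.00175 in edgeR). The IZ below the inner plate held 3.13 and 3.45 CPM, which overlapped the CPi libraries, and the MZ held 0.0965 and 0.277 CPM. The highest mean of the 18 groups of layer and stage was that of the cortical plate at E28, with 9.18 CPM, although its 2 libraries stood far apart at 4.84 and 13.5 CPM. Without CPo replicate 1 or replicate 2 its adjusted p was 0.106 and 0.0564, and over all alternatives it ranged from 1.68e-08 to 0.106.

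LINC-SOX11-14 was the most abundant of the 5 features that were higher in the CPi. SOX11 encodes a transcription factor of newborn and maturing neurons. The CPi libraries held 21.3 and 26.4 CPM of LINC-SOX11-14 and the CPo libraries 2.77 and 2.83 CPM, a log2 fold change of 3.09 ± 0.63 (SE, adjusted p = 0.014). Both CPi libraries lay far above both CPo libraries, and no group of the series had a higher mean than the CPi of E42. At E42 the IZ followed with 11.7 CPM on average, and the progenitor layers, which are the ventricular zone (VZ) and the inner and outer subventricular zones (ISVZ and OSVZ), had means between 0.119 and 0.49 CPM. Of 34 features named after SOX11, 9 were tested, and LINC-SOX11-29, the only other one with at least 20 counts in the 4 libraries, had a log2 fold change of −0.21 with overlapping groups.

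LINC-HIS-71-7 had the largest fitted difference of the 7. HIS-71 is the worm name of a histone H3.3 gene, a family with near-identical copies, so the gene near the feature is uncertain. Whether the feature holds sequence of such a copy, which would make its level uncertain, was not checked. LINC-HIS-71-7 was detected with 102 counts in the CPi, at 1.64 and 0.795 CPM, and with 1 count in the CPo, at 0.0177 and 0 CPM. The ratio of depth-scaled counts was 116, with a 95% counting interval of 20.4 to 4640, and edgeR gave an adjusted p of 0.00284. The IZ held more of it than the CPi, with 2.76 and 4.18 CPM. Without CPo replicate 2 its adjusted p was 0.172, the highest over all alternatives (lowest 1.47e-05), and without CPo replicate 1 it was 0.0647.

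LINC-TMEM132B-23 is named after a gene for a single-pass membrane protein. The study reported that gene as highly expressed in basal radial glial cells, progenitors of the subventricular zone. The level of LINC-TMEM132B-23 was 10.6 and 10.2 CPM in the CPi and 2.82 and 1.75 CPM in the CPo, a log2 fold change of 2.18 ± 0.45 (SE, adjusted p = 0.0131). The outer plate stood low against its other neighbour as well, since the MZ held 28.6 and 35.5 CPM. The 1 VZ library used held 16.6 CPM and the OSVZ had a mean of 9.08 CPM, while the ISVZ and IZ means were 2.73 and 2.98 CPM. BACE2-AS-1 lies opposite BACE2, a protease related to the beta-secretase that cuts the amyloid precursor protein. Its CPi libraries held 20.1 and 14.0 CPM and its CPo libraries 6.12 and 3.22 CPM, a log2 fold change of 1.86 ± 0.44 (SE, adjusted p = 0.0454). All other layers of E42 held more BACE2-AS-1 than the CPo, with means from 17.0 CPM in the CPi to 56.5 CPM in the 1 VZ library used.

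The 2 features higher in the CPo were PFKFB3-AS-2 and LINC-POU3F3-1. PFKFB3 makes fructose 2,6-bisphosphate, an activator of glycolysis. PFKFB3-AS-2 stood at 0.5 and 0.988 CPM in the CPi and at 5.85 and 5.61 CPM in the CPo, a log2 fold change of −2.94 ± 0.64 (SE, adjusted p = 0.0198), and its mean in the CPo was the highest of the E42 layers. POU3F3 (BRN1) is a transcription factor of upper-layer neurons and of the progenitors that make them. LINC-POU3F3-1 stood at 14.3 and 16.4 CPM in the CPi and at 34.9 and 41.6 CPM in the CPo, with no overlap, a log2 fold change of −1.31 ± 0.30 (SE, adjusted p = 0.0284). The CPo was not its highest layer, since the OSVZ had a mean of 66.0 CPM and the ISVZ 48.8 CPM, and the CPi had the lowest mean at E42.

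With 1 library left out, fewer of these 7 passed. LINC-HS3ST4-2 and LINC-HIS-71-7 passed without either CPi library, and 0 of the 7 passed without CPo replicate 1 or without CPo replicate 2, at which 171 and 168 LINC or AS features had an unadjusted p under 0.05. The adjusted p then reached 0.356 for LINC-SOX11-14, 0.475 for LINC-TMEM132B-23, 0.94 for BACE2-AS-1 and 0.434 for LINC-POU3F3-1 without CPo replicate 2, and 0.473 for PFKFB3-AS-2 without CPi replicate 1. Their directions were kept in every fit.

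**Figure D2:**
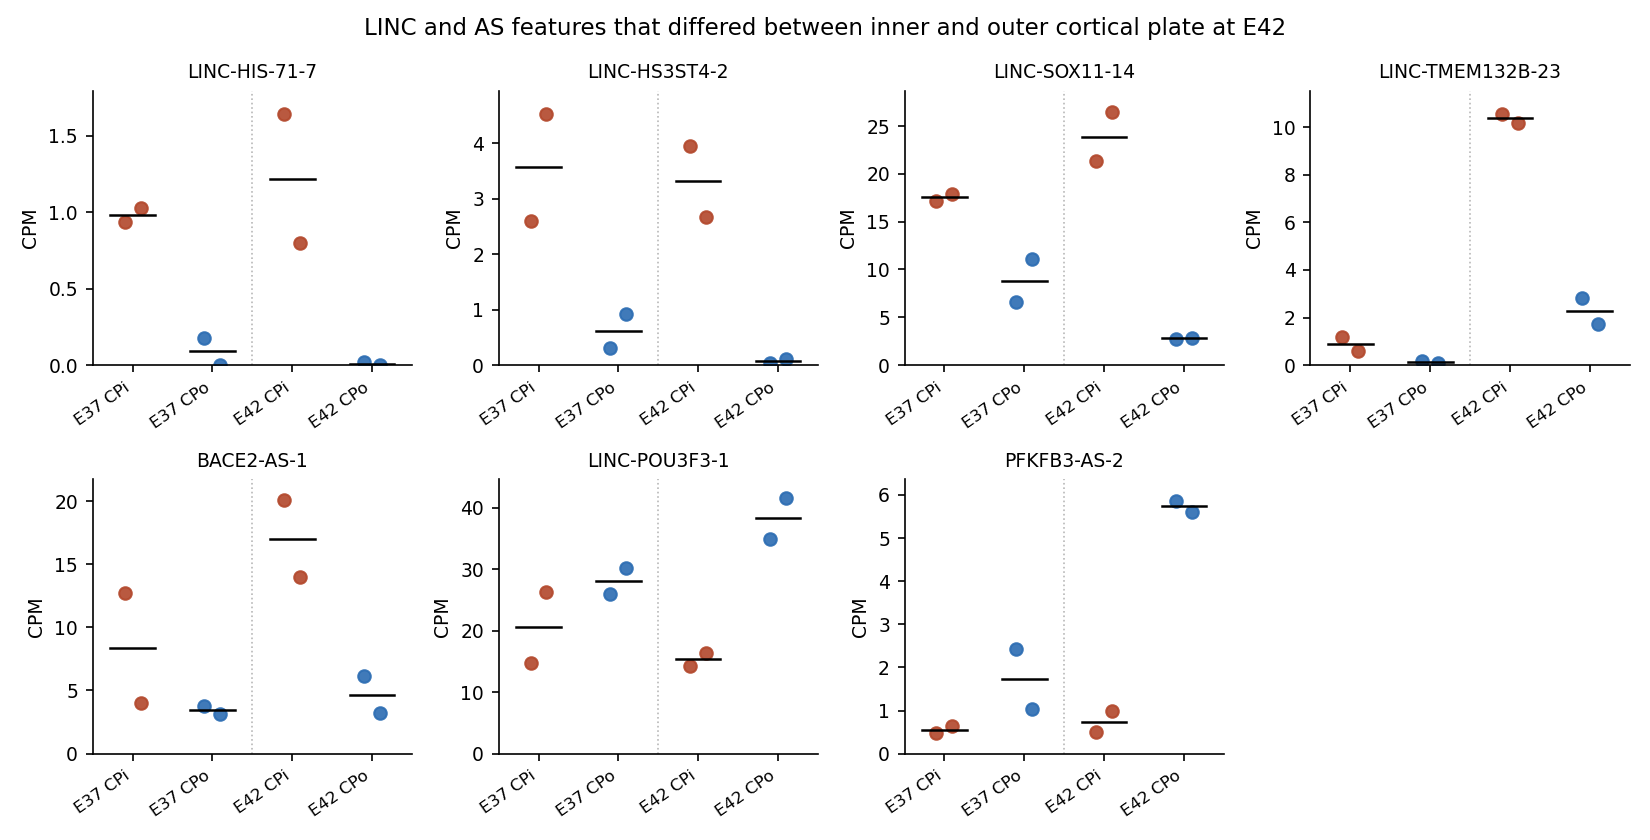
Level (CPM, linear axes from 0) of the 7 LINC and AS features with an adjusted p under 0.05 at E42, in each library of the CPi (red) and CPo (blue) at E37 and E42; points are libraries and bars are means of 2. At E42 the groups do not overlap in any panel, and LINC-SOX11-14 stands at 21.3 and 26.4 CPM in the CPi against 2.77 and 2.83 CPM in the CPo.

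The difference at LINC-POU3F3-1 was shared by other features with the same symbol. Of 24 features named after POU3F3, 17 were tested and 13 had at least 20 counts in the 4 libraries. All 13 had a negative log2 fold change, from −3.02 to −0.79 with a median of −1.55, and in 12 of them both CPo libraries lay above both CPi libraries, against 23.1% of all 5360 LINC and AS features with as many counts and a median of −0.07. LINC-POU3F3-23 held 2.19 and 2.0 CPM in the CPi and 6.58 and 6.26 CPM in the CPo, and LINC-POU3F3-22 held 9.27 and 7.78 CPM against 16.3 and 13.1 CPM. These features carry the same symbol and may share a locus or transcripts, so they cannot be treated as independent of each other. Their positions were not checked, and 1 of them, LINC-POU3F3-1, passed the adjusted test. The symbol was chosen because of that call, and LINC-POU3F3-1 is counted among the 12.

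A like pattern in the other direction was seen at TMEM132B. Of 38 features, 12 were tested and 9 had at least 20 counts, of which 8 lay higher in both CPi libraries than in both CPo libraries, against 19.2% of all LINC and AS features with as many counts. Their log2 fold changes ran from −0.04 for LINC-TMEM132B-14, whose groups overlapped, to 3.81 for LINC-TMEM132B-24, with a median of 1.69. LINC-TMEM132B-3 held 3.15 and 3.9 CPM in the CPi and 1.4 and 0.772 CPM in the CPo. Again 1 of the features, LINC-TMEM132B-23, passed the adjusted test. The symbol was chosen because of that call, and LINC-TMEM132B-23 is counted among the 8. The features named after TMEM132B too may share a locus or transcripts.

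**Figure D3:**
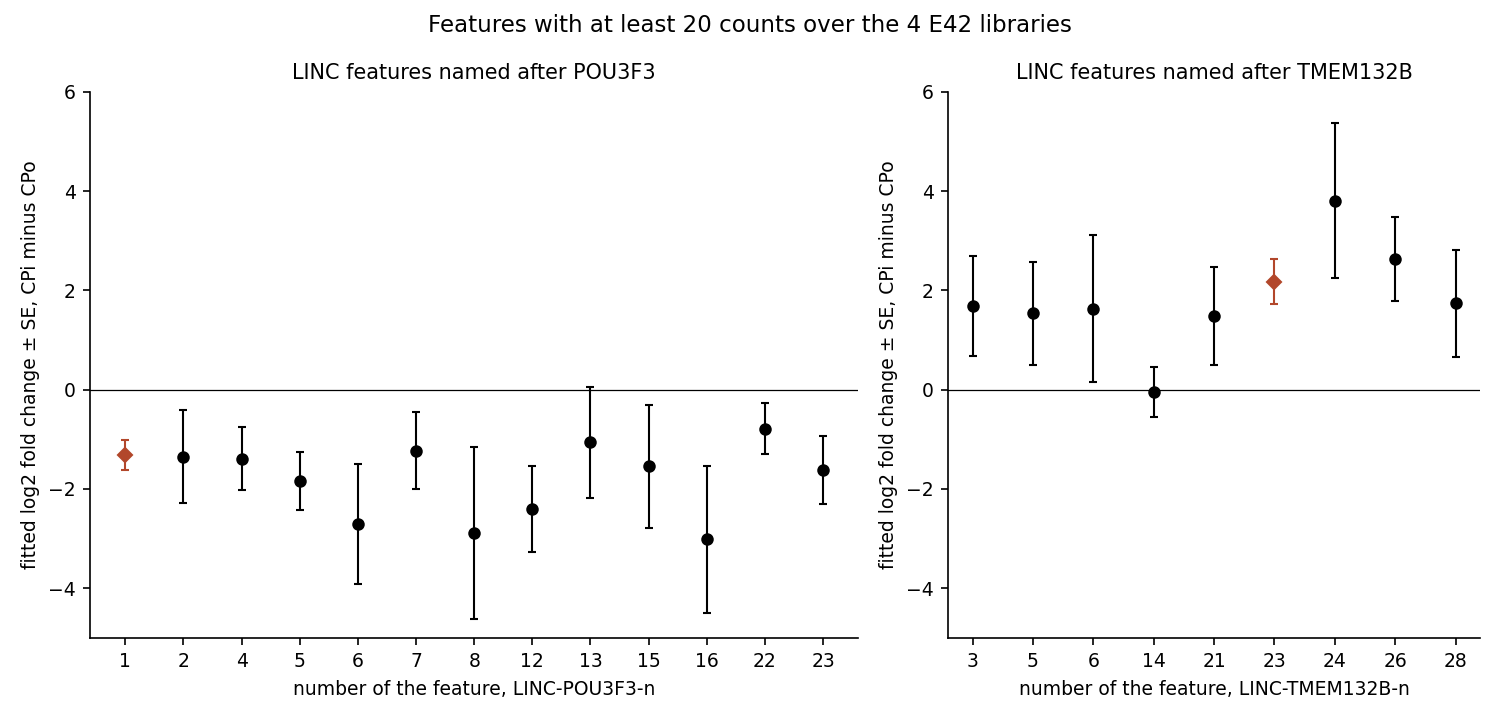
Fitted log2 fold change at E42, CPi minus CPo, with its SE (bars), of LINC features named after POU3F3 (left, 13 features) and TMEM132B (right, 9 features) that had at least 20 counts over the 4 libraries; red diamonds passed the adjusted test. All POU3F3 features lie below 0, and 8 of the 9 TMEM132B features lie above it.

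LINC and AS features were then grouped by lists of marker genes and of gene functions, 17 lists with 440 symbols. The levels are those of neighbouring transcripts, so a list describes loci, not the marker genes. At upper-layer genes, 61 features of 18 genes were tested, of which 0 were higher in the CPi at an adjusted p under 0.05 and 1 was higher in the CPo. At an unadjusted p under 0.05 the counts were 0 and 9, against 1.23% and 1.22% of all tested LINC and AS features. The groups did not overlap in 25 features that were higher in the CPo and in 4 that were higher in the CPi, or 41% and 6.56%, against 17.8% and 15.1% of all LINC and AS features. POU3F3 carried 14 of the 25 and 6 of the 9, and without it the groups did not overlap in 11 of 44 features higher in the CPo (25%) and in 4 higher in the CPi (9.09%). Among the 16 with a mean of at least 0.5 CPM, 15 had a negative log2 fold change, with a median of −1.05. Of these 16, 7 lay at POU3F3, and the other 9 lay at 5 genes, 8 of them negative, with a median of −0.66. All 2076 LINC and AS features at that level had a median of −0.08, and 27.3% of them did not overlap with the CPo higher and 19.6% with the CPi higher. Summed over the list, the CPi libraries held 94.4 and 101 CPM and the CPo libraries 187 and 184 CPM.

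LINC-POU3F1-1, near the gene of another POU3F factor, held 28.3 and 34.0 CPM in the CPi and 63.4 and 50.9 CPM in the CPo (log2 fold change −0.87, adjusted p = 0.882). CUX2-AS-1, opposite a homeobox gene of the upper layers, was rare, with 5 counts in the CPi and 60 in the CPo, a ratio of 0.0951 (95% counting interval 0.0298 to 0.234, adjusted p = 0.462). The CPo was not the highest E42 layer of CUX2-AS-1, with means of 0.709 CPM in the IZ and 0.608 CPM in the CPo, and the CPi was the lowest. LINC-POU3F1-1 had its highest E42 mean in the CPo. LINC-POU3F2-1 had 11 counts in the CPi and 21 in the CPo, and its libraries overlapped.

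At deep-layer genes, 46 features of 16 genes were tested, of which 1 was higher in the CPi at an adjusted p under 0.05, LINC-HS3ST4-2, and 0 were higher in the CPo. At an unadjusted p under 0.05 the counts were 5 and 0, against 1.23% and 1.22% of all tested LINC and AS features. The groups did not overlap in 15 features higher in the CPi and in 7 higher in the CPo, or 32.6% and 15.2%, against the 15.1% and 17.8% given above. Of 7 features with a mean of at least 0.5 CPM, 5 had a positive log2 fold change. Their median was 1.75, against −0.08 over all LINC and AS features at that level. Summed over the list, the CPi libraries held 18.1 and 16.1 CPM and the CPo libraries 8.34 and 7.0 CPM. SOX5-AS-6, opposite a gene that specifies corticofugal neurons, held 2.22 and 1.78 CPM in the CPi and 0.426 and 0.618 CPM in the CPo, with a log2 fold change of 1.94 ± 1.08 (SE, adjusted p = 0.869). LINC-TOX-1 held 2.36 and 2.63 CPM against 0.922 and 0.515 CPM (adjusted p = 0.896), and ETV1-AS-2 had 30 counts against 1. At E42 LINC-TOX-1 had means of 3.57 CPM in the ISVZ and 3.96 CPM in the OSVZ, above its 2.49 CPM in the CPi. The 1 VZ library used held 9.8 CPM of LINC-TOX-1. ETV1-AS-2 had means of 0.897 CPM in the ISVZ and 0.44 CPM in the OSVZ against 0.36 CPM in the CPi. LINC-HS3ST4-2 and SOX5-AS-6 had their highest E42 means in the CPi. LMO3-AS-1 and FOXP1-AS-2, near other genes of the list, differed little, with log2 fold changes of 0.14 and −0.06. NTNG2, PCP4 and RPRM had features without a count in the 4 libraries.

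At genes of newborn and migrating neurons, LINC-SOX11-14 was the 1 feature of 35 that passed, and the groups did not overlap in 10 features higher in the CPi and 7 higher in the CPo, or 28.6% and 20%, against 15.1% and 17.8% of all LINC and AS features. LINC-SSTR2-2, near a somatostatin receptor gene of migrating neurons, held 7.62 and 8.48 CPM in the CPi and 1.74 and 1.83 CPM in the CPo (log2 fold change 2.17 ± 0.80, SE, adjusted p = 0.443). LINC-SOX4-6, near a relative of SOX11, held 4.24 and 2.48 CPM against 1.08 and 0.747 CPM (adjusted p = 0.266). PLXNA4-AS-9, opposite a plexin receptor gene, was the most abundant of the list and went the other way, with 92.6 and 97.4 CPM in the CPi and 132 and 156 CPM in the CPo (log2 fold change −0.60, adjusted p = 0.716). LINC-DAB1-7 had 6 counts in the CPi and 3 in the CPo.

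In the other 9 cell type lists, 0 features passed the adjusted test in either direction, at which 3 had an unadjusted p under 0.05. Among all 10836 tested LINC and AS features 265 had such a p, and the number tested is given below for each list. At interneuron genes, 41 features were tested, and their summed level was 27.4 and 21.1 CPM in the CPi and 23.8 and 24.5 CPM in the CPo. SST-AS-1, opposite the somatostatin gene, held 3.43 and 2.51 CPM in the CPi and 0.532 and 0.206 CPM in the CPo, the largest difference among the interneuron features of at least 0.5 CPM, with a log2 fold change of 2.98 ± 0.95 (SE, adjusted p = 0.239). GAD1-AS-1, GAD2-AS-1 and LINC-SLC32A1-1, at genes that every GABAergic neuron uses, had log2 fold changes of −0.80, 0.42 and −0.59, and the groups of all 3 overlapped. At progenitor genes, 52 features were tested, with 11.9 and 9.93 CPM in the CPi and 10.5 and 6.72 CPM in the CPo. Features named after SOX2 were rare: LINC-SOX2-1 had 25 counts in the CPi and 20 in the CPo, LINC-SOX2-2 had 19 and 30, LINC-SOX2-3 had 13 and 12, LINC-SOX2-4 had 2 and 15, LINC-SOX2-6 had 2 and 1, and LINC-SOX2-7 had 1 and 2. The ratio of depth-scaled counts was 0.152 for LINC-SOX2-4 (95% counting interval 0.0169 to 0.654), but the feature did not pass the test across features (adjusted p = 0.912).

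Subplate genes had 14 tested features with 6.7 and 9.44 CPM in the CPi and 3.76 and 5.97 CPM in the CPo, and LINC-SERPINI1-4 had the lowest p, with 4.36 and 6.84 CPM against 1.4 and 2.78 CPM (adjusted p = 1). At Cajal-Retzius cell genes, 15 features were tested, with 8.72 and 6.92 CPM in the CPi and 6.85 and 5.69 CPM in the CPo. The lowest p was that of LINC-LHX5-1, with 1 count in the CPi and 7 in the CPo, while RELN-AS-1 and RELN-AS-4 had 0 counts in all 4 libraries and RELN-AS-5 had 2 and 1. Features at genes of astrocytes and oligodendrocytes (16 tested) summed to 4.34 and 4.02 CPM in the CPi and 3.58 and 1.83 CPM in the CPo, with LINC-SOX10-1 lowest in p at 0.477 and 1.4 CPM against 0.355 and 0.335 CPM. Those at endothelial and mural genes (12 tested) summed to 3.67 and 3.93 CPM against 3.51 and 4.09 CPM, and FLT1-AS-1 had 9 counts against 1. Those at meningeal genes (5 tested) summed to 3.1 and 2.27 CPM against 2.09 and 0.798 CPM, and LINC-DCN-4 had 0 counts against 1. Those at microglial genes (4 tested, all at PTPRC) summed to 11.5 and 9.18 CPM against 19.4 and 13.3 CPM, with LINC-PTPRC-4 lowest in p (adjusted p = 1). Those at erythroid genes (3 tested) stayed at or below 0.19 CPM, and HBA1-AS-1 had 4 counts against 0. The features of GFAP, OLIG1, CLDN5, PDGFRB, CSF1R, SPI1 and HBB had no count in the 4 libraries. The part of these cell types in the 176 differences was not tested.

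Of the 5 lists of gene functions, 0 features passed the adjusted test, at which 7 had an unadjusted p under 0.05. Of all 10836 tested LINC and AS features, 265 had such a p, and the number tested is given below for each list. At neurotransmitter receptor genes, 51 features of 30 genes were tested, and 14 were higher in the CPi without overlap against 4 higher in the CPo, or 27.5% and 7.84%, against 15.1% and 17.8% of all LINC and AS features. Of the 11 with a mean of at least 0.5 CPM, each at another gene, 10 had a positive log2 fold change, with a median of 0.60, against −0.08 over all LINC and AS features at that level. LINC-HTR1B-1, near a serotonin receptor gene, held 3.1 and 2.31 CPM in the CPi and 1.12 and 0.772 CPM in the CPo (adjusted p = 0.988), and GRIA3-AS-3, opposite an AMPA receptor subunit gene, held 6.53 and 4.99 CPM against 3.16 and 2.52 CPM. The lowest p of the list was that of LINC-GRIK3-16, with 7 counts in the CPi, all in replicate 1, and 0 in the CPo.

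At axon guidance genes, 82 features were tested, with 14 higher in each layer without overlap, or 17.1%, near the 15.1% and 17.8% of all LINC and AS features. NRP2-AS-1, opposite a semaphorin receptor gene, came closest to the threshold, with 1.67 and 1.11 CPM in the CPi and 8.44 and 2.81 CPM in the CPo (log2 fold change −2.02 ± 0.52, SE, adjusted p = 0.0752). At synaptic adhesion genes (87 tested) 17 were higher in the CPi and 19 in the CPo without overlap, or 19.5% and 21.8%. LINC-OPCML-1 was lowest in p there, at 0.191 and 0.506 CPM against 1.1 and 3.66 CPM, and LRRTM4-AS-4 stood at 0.762 and 0.217 CPM against 3.74 and 1.96 CPM. At genes of voltage-gated channels (43 tested) the numbers were 6 and 10, or 14% and 23.3%, and KCND3-AS-3, opposite a potassium channel gene, held 11.1 and 7.59 CPM against 4.84 and 2.42 CPM (adjusted p = 0.423). At cadherin and protocadherin genes (43 tested) they were 9 and 4, or 20.9% and 9.3%, and the lowest p was that of LINC-CDH4-23, with 6 counts in CPi replicate 2 and 0 in the other 3 libraries.

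In a fit of the 4 libraries alone, which estimated the spread from them and not from all layers, 1143 of 17103 features passed (6.68%), among them 96 LINC or AS features, 58 higher in the CPi (1.57%) and 38 higher in the CPo (1.03%). It kept 174 of the 176 features and all 7 LINC and AS features named above. Among the list members, 0 features at upper-layer genes were then higher in the CPi and 8 were higher in the CPo, among them CUX2-AS-1, LINC-POU3F1-1 and 5 LINC-POU3F3 features (1, 5, 6, 12 and 23), and 4 features at deep-layer genes were higher in the CPi and 0 in the CPo, namely LINC-HS3ST4-2, SOX5-AS-6, LINC-TOX-1 and ETV1-AS-2. Their adjusted p in edgeR was between 0.000872 and 0.0478. At genes of newborn and migrating neurons, LINC-SOX11-14, LINC-SOX4-6, LINC-SSTR2-1 and LINC-SSTR2-2 (4 features) were higher in the CPi, and PLXNA4-AS-9 (1 feature) in the CPo. From other lists, SST-AS-1 and LINC-HTR1B-1 were higher in the CPi and LRRTM4-AS-4 in the CPo. This fit had 2 residual degrees of freedom, and its common coefficient of variation of 0.192 was lower than the 0.378 of the fit over 35 libraries.

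Of the TSDBGID features, 4 are given by identifier, the 2 with the largest fitted difference in each direction at a mean of at least 5 CPM. TSDBGID.6004 lay mainly in the CPi and the IZ at E42, with 38.7 and 22.7 CPM in the CPi, 12.3 and 18.1 CPM in the IZ, and at most 0.448 CPM in a library of the other E42 layers. It had 2563 counts in the CPi and 4 in the CPo, a ratio of 731 (95% counting interval 285 to 2685), and an adjusted p of 0.000166 in edgeR. TSDBGID.23222 held 85.3 and 66.0 CPM in the CPi and 1.7 and 1.03 CPM in the CPo (log2 fold change 5.77 ± 0.82, SE, adjusted p = 0.00145). The IZ held 9.46 and 17.9 CPM of it, and the ISVZ held more than the CPi, with 138 and 170 CPM. TSDBGID.25698 stood at 24.3 and 28.3 CPM in the CPi and at 173 and 221 CPM in the CPo (log2 fold change −2.90 ± 0.49, SE, adjusted p = 0.00542). All other E42 layers held more of it than the CPi, with means of 96.3 to 166 CPM. TSDBGID.11610 stood at 2.24 and 2.1 CPM in the CPi and at 25.1 and 38.0 CPM in the CPo (log2 fold change −3.86 ± 0.68, SE, adjusted p = 0.00413). It was low in every other layer, with 4.98 and 5.5 CPM in the MZ and at most 0.296 CPM in a library of the VZ, ISVZ, OSVZ and IZ.

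For the features called at E42, the same contrast at E37, in 4 other libraries, gave differences that lay mostly on the same side. At E37, 5 of 26858 features passed (0.0186%), all higher in the CPi, and 4 of them were among the 125 of E42. Of the 125 features higher in the CPi at E42, 123 had a positive log2 fold change at E37, with a median of 0.75, and in 97 of them (77.6%) both CPi libraries lay above both CPo libraries, against 13.1% of all features. Of the 51 features higher in the CPo at E42, 51 had a negative log2 fold change at E37, with a median of −0.49, and in 34 of them (66.7%) both CPo libraries lay above both CPi libraries, against 11.7% of all features. Across the 125 and the 51 features the E37 and E42 values had Pearson correlations of 0.823 and 0.649, and across all 26858 features 0.101. These values describe features that share libraries within each stage. The shares and the correlation over all features were not matched for level. In E37 CPi replicate 2 the median log2 CPM was 5.69 over the 125 features and 5.87 over the 51, against −0.54 over all features.

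The difference was larger in size at E42 than at E37 in 122 of the 125 features and in all 51, but the features were chosen for their E42 values, which favours larger values at that stage. A test of the change of the difference from E37 to E42 called 0 of 26858 features (0%) in edgeR, with 570 at an unadjusted p under 0.05, and the DESeq2 Wald test called 3. LINC-SOX11-14 held 17.2 and 17.9 CPM in the CPi of E37 and 6.55 and 11.1 CPM in the CPo, and the change of its log2 fold change between the stages was 2.1 ± 0.83 (SE, adjusted p = 1) and did not pass. LINC-HS3ST4-2 held 2.59 and 4.54 CPM in the CPi of E37 and 0.314 and 0.929 CPM in the CPo. LINC-TMEM132B-23 was the 1 of the 7 whose difference was not larger at E42, with 1.19 and 0.61 CPM in the CPi of E37 and 0.179 and 0.107 CPM in the CPo. Among list members that did not pass, LINC-HTR1B-1, LINC-TOX-1 and ETV1-AS-2 had E37 log2 fold changes of −0.79, −0.27 and −0.40, opposite to E42. Those of SOX5-AS-6, LINC-SSTR2-2 and SST-AS-1 kept their sign, at 2.2, 0.64 and 3.93.

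**Figure D4:**
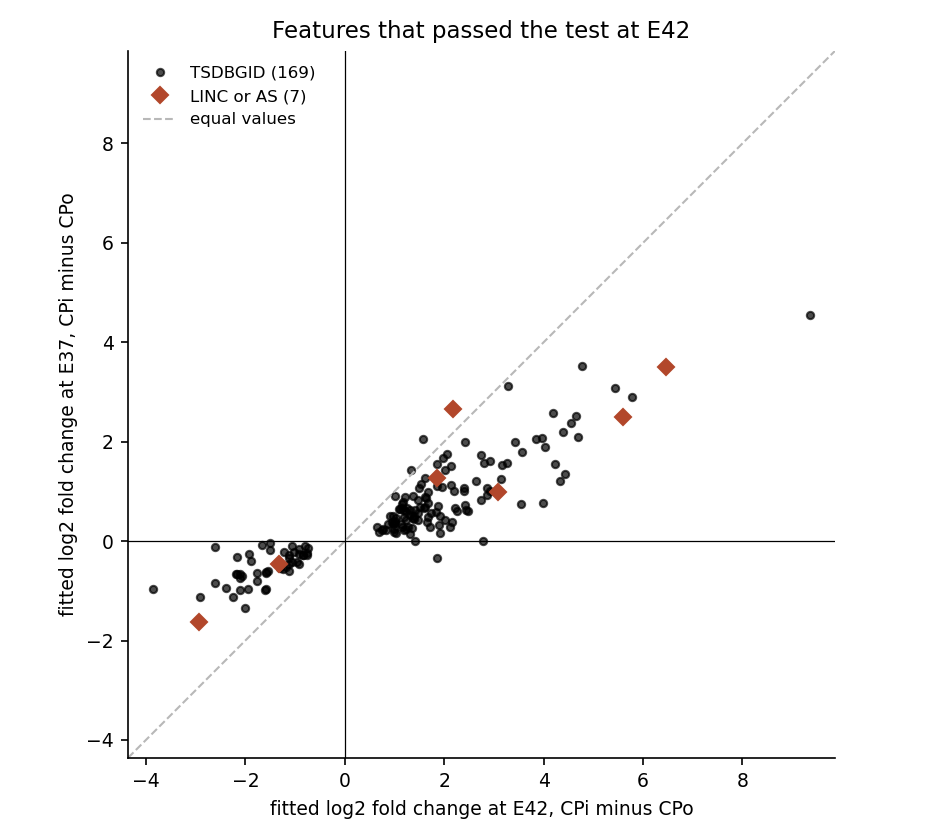
Fitted log2 fold change, CPi minus CPo, at E42 (x axis) and at E37 (y axis) for the 176 features that passed the test at E42; red diamonds are LINC and AS features and the dashed line marks equal values. Of the features right of 0, 123 of 125 lie above 0 at E37, and all 51 left of 0 lie below it.

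Across the 7 layers of E42, the 125 features higher in the CPi had their next highest median level in the IZ. Their median level on the log2 CPM scale was 6.38 and 6.36 in the CPi libraries, 5.74 and 6.0 in the IZ, 4.89 and 5.14 in the MZ, 4.37 and 4.18 in the CPo, and between 4.15 and 4.32 in the VZ, ISVZ and OSVZ. The CPi had the highest mean for 67 of the 125, the IZ for 24 and the VZ for 21, or 53.6%, 19.2% and 16.8%. Over all features the shares were 13.3%, 9.05% and 26.4%. For 114 of them the IZ lay above the CPo, and for 46 it lay above the CPi as well, against 14384 and 11615 of all 26858 features.

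The 51 features higher in the CPo had another shape, a low in the CPi. Their median level was 4.98 and 4.88 in the CPi libraries, 6.55 and 6.75 in the CPo, 6.02 and 5.92 in the MZ, 6.02 and 5.95 in the IZ, and between 6.23 and 6.59 in the VZ, ISVZ and OSVZ. The CPo had the highest mean for 23 of them, the ISVZ for 12, the VZ for 7 and the OSVZ for 6, or 45.1%, 23.5%, 13.7% and 11.8%, against 11.4%, 17%, 26.4% and 10.9% of all features. In 43 of the 51 the MZ lay above the CPi, and in 40 the IZ did, against 14416 and 14343 of all 26858 features. Because the features were chosen for their CPi and CPo levels, these shapes are descriptions and were not tested, and the VZ is given by 1 library.

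**Figure D5:**
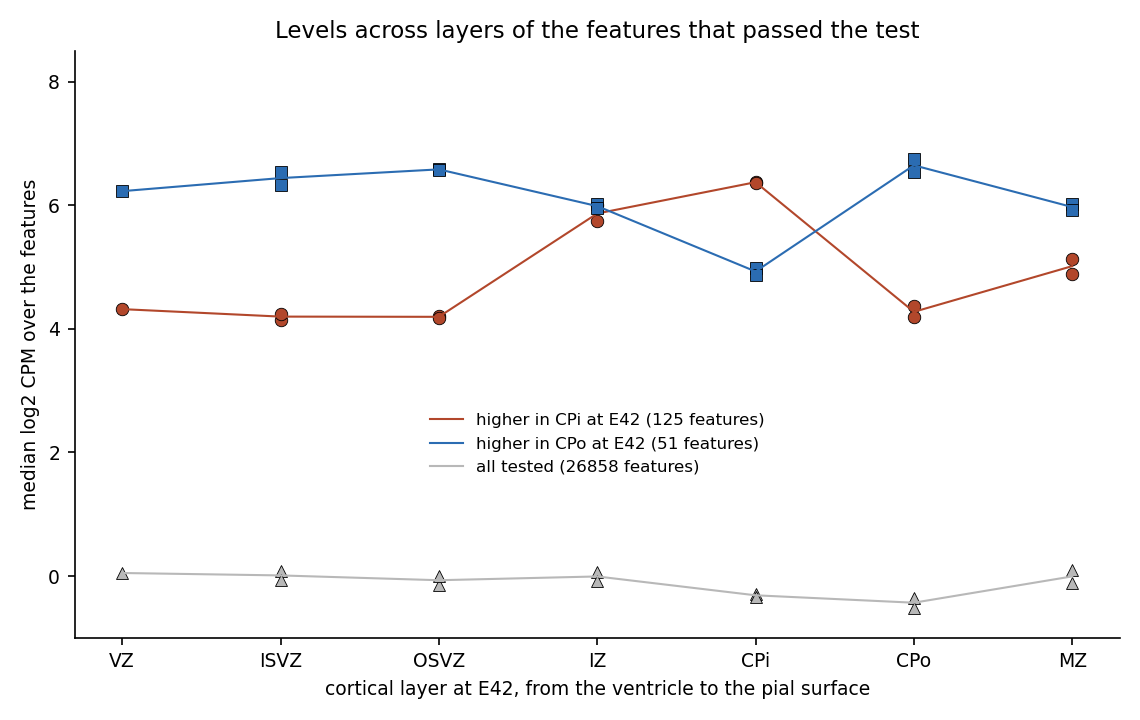
Median level (log2 CPM) over the features higher in the CPi (red circles, 125), over those higher in the CPo (blue squares, 51) and over all tested features (grey triangles, 26858), in each library of the E42 layers from the ventricle to the pial surface; lines join the means. The red line peaks at 6.38 and 6.36 in the CPi with the IZ next to it, and the blue line dips to 4.98 and 4.88 in the CPi.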

How the data were processed

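The authors trimmed the reads, mapped them with HISAT to the tree shrew genome (TS_3.0 annotation) and deposited integer counts per feature from HTSeq, not normalized. Here the counter's own summary lines were removed. They held 17.3% to 17.8% ambiguous and 9.91% to 11.1% unassigned reads in the 4 libraries, so features that overlap others lose reads. Intervals on counts cover counting error only.

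The tests were run with edgeR 4.0.16 under R 4.3.3. Libraries were scaled by the trimmed mean of M-values, features were kept by filterByExpr at a minimum count of 10, and the robust quasi-likelihood test was fitted in a model of 35 libraries in 18 groups of layer and stage, without a replicate block. Replicate 2 of the E42 VZ was left out because its 76871 counts equal those of replicate 2 of the E28 VZ. Benjamini-Hochberg adjustment covered all 26858 features, with a threshold of 0.05, and log2 CPM used a prior count of 2. The procedure was tested on simulated data. DESeq2 1.42.0 was the other test, edgeR called limma 3.58.1, and plots were drawn with matplotlib 3.10.9 in Python 3.11.15.

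Replicates of a layer differed by more than sampling noise (chi-square per degree of freedom 18.4 and 19.8), and the layers differed more (52.6 and 55.1). The deviations of same-numbered CPi and CPo libraries from their group means correlated at 0.177. The labels do not say what the replicate number marks.

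The members and lists were chosen with earlier results of these data known. Named were LINC and AS features that passed with at least 0.5 CPM, 12 at most per direction, 2 TSDBGID features per direction with at least 5 CPM, list members that passed or had the lowest p of their list, and features of POU3F2, TBR1, SOX2, DAB1, RELN and other study markers. Some features that this rule names are not reported here. List members called in the fit of 4 libraries, other features with the same symbols, and further list members were named after their values were seen. The alternatives were another filter, test, scaling, set of libraries, threshold or block, and each library left out.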

Additional observations from a re-analysis of the deposited data

How the results depend on the processing

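All 176 features kept their direction under every alternative tried. Their number was 184 with DESeq2's size factors, 168 without the 20 most abundant features in the library size and 154 with a log2 fold change above 1. It was 417 (27 LINC or AS) without a filter on low counts, 491 (29) in the DESeq2 Wald test, 1143 (96) with the 4 libraries alone and 987 (74) with the libraries of E42 alone. With all 36 libraries it was 106, and BACE2-AS-1 (adjusted p = 0.0529) and LINC-POU3F3-1 (adjusted p = 0.0638) no longer passed in edgeR. Leaving out 1 library gave 13 to 60 features, of which 0 to 2 were LINC or AS. The share of calls that were higher in the CPi was 76.2% in DESeq2, 75.5% with its size factors, 77.7% with the libraries of E42 alone and 38.5% without CPo replicate 2. The median of all features moved by at most 0.06 (log2). The cause of these changes was not tested.

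With the replicate number as a block, the pairing gave 479 features (23 LINC or AS), 62% of them higher in the CPi, and within the 4 libraries alone 4456 (310), 50.9% of them higher in the CPi. The block called 22 features at E37 and 427 with the E37 libraries alone, and for the change between stages 4 and 328. In 4 libraries alone, at either stage, the block left fewer residual degrees of freedom than the 2 of the fit without it.

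At E37 the 5 calls became 65 without a filter, 43 in DESeq2, 3 with all 36 libraries, 0 with the 4 libraries alone in edgeR (455 at an unadjusted p under 0.05) and 1 to 9 with 1 library left out. The change between stages had 13 calls without a filter and 3 in DESeq2.

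Rare features changed sign with 1 library left out, with log2 fold changes from −3.42 to 2.0 for LINC-DAB1-7, −0.17 to 3.37 for LINC-SOX2-1, −0.034 to 0.98 for LINC-SOX2-3 (−0.0074 without CPi replicate 2), −1.36 to 0.11 for LINC-SOX2-2 and −1.26 to 0.74 for LINC-POU3F2-1. A fit that left a feature without counts gave no value.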

Other observations

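The fit of the 4 libraries alone called LINC and AS features outside the lists that did not pass over 35 libraries. The 5 with the highest mean level in each direction are given here, chosen after their values were seen. LINC-SIAH3-1, near a gene of the SIAH ubiquitin ligase family, held 48.1 and 62.5 CPM in the CPi and 11.7 and 11.1 CPM in the CPo (log2 fold change 2.28 ± 0.18, SE, adjusted p = 0.000319 in edgeR). PFKP-AS-1, opposite a phosphofructokinase gene of glycolysis, held 54.8 and 46.4 CPM against 14.6 and 13.0 CPM (1.88 ± 0.16, SE, adjusted p = 0.000499). Both differences were larger than the gap between replicates, which a call in this fit nearly fixes. AKAP12-AS-2, opposite the gene of a scaffold of protein kinase A, held 24.2 and 25.8 CPM against 11.2 and 8.62 CPM (adjusted p = 0.00453), and NRSN2-AS-1 held 32.9 and 34.5 CPM against 16.7 and 16.1 CPM (adjusted p = 0.00523). LINC-KIF5C-1, near a gene of a neuronal kinesin, differed least, with 99.0 and 93.6 CPM against 69.3 and 66.1 CPM (log2 fold change 0.51 ± 0.12, SE, adjusted p = 0.0457).

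In the other direction, AGFG1-AS-1 held 28.6 and 22.0 CPM in the CPi and 63.6 and 53.0 CPM in the CPo (log2 fold change −1.20 ± 0.17, SE, adjusted p = 0.00504). HIKESHI-AS-1, opposite the gene of an import carrier of heat shock proteins, held 25.7 and 24.1 CPM against 51.8 and 48.6 CPM (adjusted p = 0.00425). LINC-PLCL1-8 held 13.0 and 11.8 CPM against 29.7 and 20.4 CPM, and LINC-DPYD-2 15.1 and 14.5 CPM against 24.3 and 27.5 CPM. ZNF490-AS-1 was the most abundant of these 10 features, with 157 and 143 CPM against 219 and 209 CPM (log2 fold change −0.51 ± 0.12, SE, adjusted p = 0.0393). The groups of all 10 did not overlap, which a call with 2 libraries a group nearly fixes, and this fit had 2 residual degrees of freedom.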
